A study of Homo sapiens with 6 samples.

Results

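The genes described here are 42 interferon-stimulated genes, taken as a list of names. The rule uses no measured value, though the list was drawn up when earlier results of these libraries were known. All 42 were found among 26967 named genes of an RNA-seq table, and 41 of them had a mean of at least 10 normalized counts over the 6 libraries, which was the limit for testing. The remaining member, MX2, is described by its reads only. The libraries came from UWB1.289, an established human ovarian carcinoma cell line that lacks functional BRCA1. The cells had been transduced with lentivirus carrying either a control hairpin (shCTRL, 3 libraries) or a hairpin against HBO1 (shHBO1, 3 libraries), in the presence of 10 µg/mL polybrene. From 96 h onward, all had been selected in puromycin raised from 1 to 3 µg/mL. HBO1 is a histone acetyltransferase encoded by KAT7. The control cells therefore share the viral transduction and the drug selection with the knockdown cells, and untransduced cells were not analysed here. How many hairpins were used is not given, so a change caused by loss of HBO1 and one caused by the hairpin itself cannot be told apart. The labels number the libraries 1 to 3 in each group without saying whether each came from its own culture, so the spread behind every p-value may be technical.

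Interferon-stimulated genes are switched on when type I or type III interferons bind their receptors. The receptor-bound kinases JAK1 and TYK2 then activate a transcription factor complex that contains STAT2 and IRF9 and binds a DNA element named ISRE (interferon-stimulated response element). Interferon gamma acts through another element, GAS (gamma-activated site), and IRF1 is among its best-known targets. Many members encode proteins that block viral entry, sense or degrade viral RNA, or modify proteins with the ubiquitin-like protein ISG15, and tumour cells often express some of them without added interferon.

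The ISRE is shown first, because it is a feature many members share and no expression value was used to find it. Promoter windows, from 250 bases before to 50 bases after each start site, were found in the RefSeq table (GRCh38.p14) for 35 members. The letters GAAA, any 2 bases and GAAA again, searched on both strands, occurred in the windows of 25 of these 35 members (71.4%). Over all 27305 genes with a window, 1195 (4.38%) held this motif, and 3.57% of all 35116 windows did. The windows below are 30 bases on the strand of the gene, 5′ to 3′, with the match in capitals. They were chosen to cover each role among the members but that of the transcription factors, and a match that starts with TTTC is the same motif read on the other strand.
ISG15 (chr1:1013380-1013409, + strand): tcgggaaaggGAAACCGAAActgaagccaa
IFIT1 (chr10:89392510-89392539, + strand): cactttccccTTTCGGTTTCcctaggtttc
IFITM3 (chr11:320876-320905, - strand): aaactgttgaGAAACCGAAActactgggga
BST2 (chr19:17405741-17405770, - strand): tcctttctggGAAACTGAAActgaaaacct
SAMD9 (chr7:93118096-93118125, - strand): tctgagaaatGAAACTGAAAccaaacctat
OAS3 (chr12:112938321-112938350, + strand): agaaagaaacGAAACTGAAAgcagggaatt
IFIH1 (chr2:162318686-162318715, - strand): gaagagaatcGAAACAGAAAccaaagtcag
RSAD2 (chr2:6877622-6877651, + strand): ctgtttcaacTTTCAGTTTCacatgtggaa
IFI27 (chr14:94110631-94110660, + strand): cggtttcctgGAAAATGAAAcctatctcat
PARP9 (chr3:122564322-122564351, - strand): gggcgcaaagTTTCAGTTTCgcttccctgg

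In ISG15 the match began 107 bases upstream of the start site, in IFIT1 103, in IFITM3 35 and in SAMD9 136. PARP9 and DTX3L are neighbours that start in opposite directions, and the same 30 bases on chromosome 3 gave the match in both windows. The 10 members with a window and without the motif were STAT2, IRF9, IRF1, OAS1, HERC6, CMPK2, SAMD9L, SP100, IFI35 and XAF1. No window was matched for OASL, IRF7, IFIT2, USP18, IFITM2, MX2 and OAS2. The GAS letters, TTC, any 3 bases and GAA, which read the same on both strands, occurred in 10 of the 35 members (28.6%), against 9.38% of all genes and 7.66% of all windows. They are shown for the transcription factors of the list that held them, with the match in capitals.
IRF1 (chr5:132490879-132490907, - strand): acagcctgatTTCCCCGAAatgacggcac
IRF9 (chr14:24161192-24161220, + strand): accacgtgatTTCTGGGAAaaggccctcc

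The GAS match of IRF1 began 124 bases upstream of its start and that of IRF9 63 bases. Matches to both motifs can share bases, as in IFI27, where the upper-case stretch printed above overlaps a GAS match. These matches describe letters in a window, and binding was not measured.

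The 6 libraries held 35940400 to 39908703 recovered reads, and the members together took 0.111 to 0.129% of the reads assigned to named genes. The 14 epithelial and Mullerian markers ranged widely, with means over the 6 libraries of 122750 normalized counts for KRT7 and 13.7 for WT1. FOLR1 was also low, at 61.2. EPCAM had 27414 ± 859 normalized counts in shCTRL and 28120.5 ± 1629 in shHBO1 (SD, n = 3 per group). The summed level of the 14 leukocyte markers was 630.3 to 789 in shCTRL and 627 to 778 in shHBO1, with most of it from CD68. ITGAX (mean 89.1 over the 6 libraries), PTPRC (32.3) and CD14 (28.8) were also detected. CD3D, CD2, LILRA4 and CLEC4C had 0 reads in all libraries. KAT7, the gene targeted, was lower in each of the 3 shHBO1 libraries than in any control, at 23.9% of the control mean (log2 fold change −2.07, SE 0.11, limma adjusted p = 0.00123). An exact two-sided permutation test over libraries cannot go below p = 0.1 with 3 per group, the value it gave for KAT7.

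**Figure D1:**
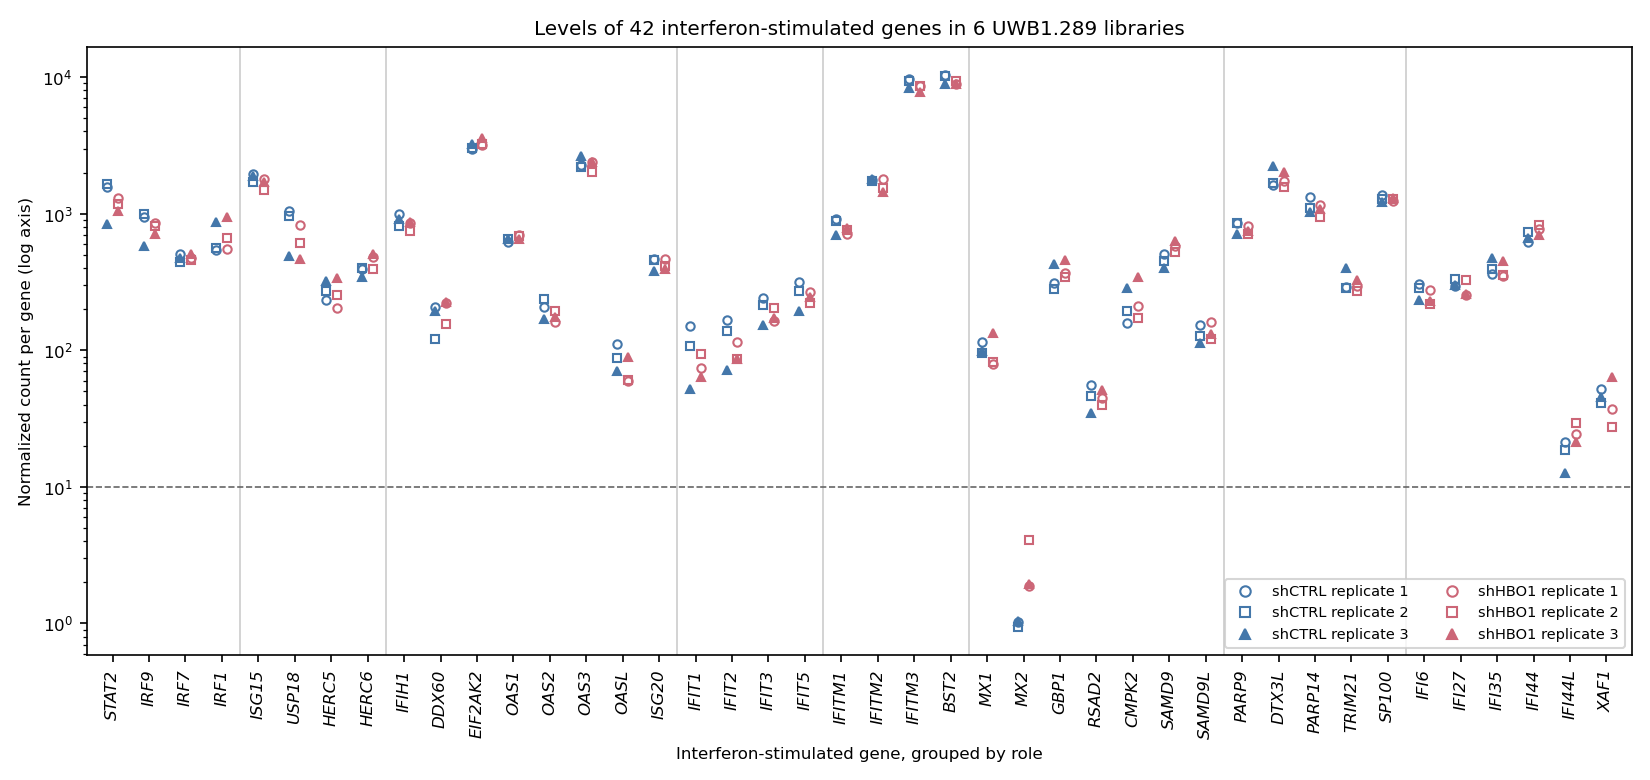
Normalized counts of the 42 members (log axis) in each library, grouped by role. Circles, squares and filled triangles are replicates 1, 2 and 3, blue for shCTRL and red for shHBO1. BST2 and IFITM3 lie near the top in all 6 libraries, MX2 is the only member under the dashed line at a mean of 10, and the colours overlap in all tested members but SAMD9.

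The members spanned a wide range of basal levels. Levels per kb of transcript compare genes only roughly, since the sum over all transcripts of a gene is divided by the length of 1. On this scale the highest mean over the 6 libraries was 10834 normalized counts for IFITM3, a membrane protein that blocks fusion of incoming viruses. BST2 (tetherin), which holds budding virus particles at the cell surface, followed at 9298. Next were ISG15 at 2759, IFITM2 at 2552, IFITM1 at 925 and the RNA-activated kinase EIF2AK2 (PKR) at 738. The lowest tested member was IFI44L at 3.62 per kb, and RSAD2 (viperin), which makes a chain-terminating nucleotide, stood at 12.9. A length was available for 41 of the 42 members, all but SAMD9L. MX2, a GTPase that restricts retroviruses at the nucleus, had 1, 1 and 1 reads in shCTRL and 2, 4 and 2 in shHBO1. Those counts lie near the limit of 3 reads that a count of 0 allows, so no fold is given for it. How reads were assigned to transcripts is unknown, and whether that lowered the counts of MX2 was not tested. Its relative MX1 was readily detected, at 103 ± 10.3 normalized counts in shCTRL and 98.0 ± 30.5 in shHBO1.

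No interferon-stimulated gene passed the test between the shHBO1 and shCTRL libraries. By limma over 15173 genes, at a Benjamini-Hochberg adjusted p under 0.05, 0 of the 41 tested members were called and 0.00659% of all genes were (KAT7 alone). At an unadjusted p under 0.05 there was 1 member, SAMD9, higher in shHBO1. That level was reached by 3.55% of all tested genes, 1.73% higher and 1.81% lower in shHBO1. The median log2 fold change was −0.09 over the members and 0.00013 over all tested genes, and 28 members had estimates below 0 and 13 above. The 95% confidence interval lay within a 2-fold change in either direction for 37 of the 41 members and within 1.41-fold for 19. With edgeR and DESeq2 on the recovered reads, 0 members passed, where 0.00659% and 0.125% of all genes did, and 1 member had an unadjusted p under 0.05 in each, where 3.64% of all genes in edgeR and 3.69% in DESeq2 reached that level. With the replicate number as a block, 0 members passed in limma (smallest adjusted p = 0.310, for USP18), where 0.125% of all genes did, and 3 had an unadjusted p under 0.05 (SAMD9 higher, ISG15 and USP18 lower), where 11.3% of all genes did. The blocked fits of edgeR and DESeq2 also called 0 members, against 0.125% and 0.975% of all genes. For 3 members the blocked fit of DESeq2 gave no adjusted p. The block rests on a pairing taken from these same data, so p-values of the blocked fits are a description only.

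**Figure D2:**
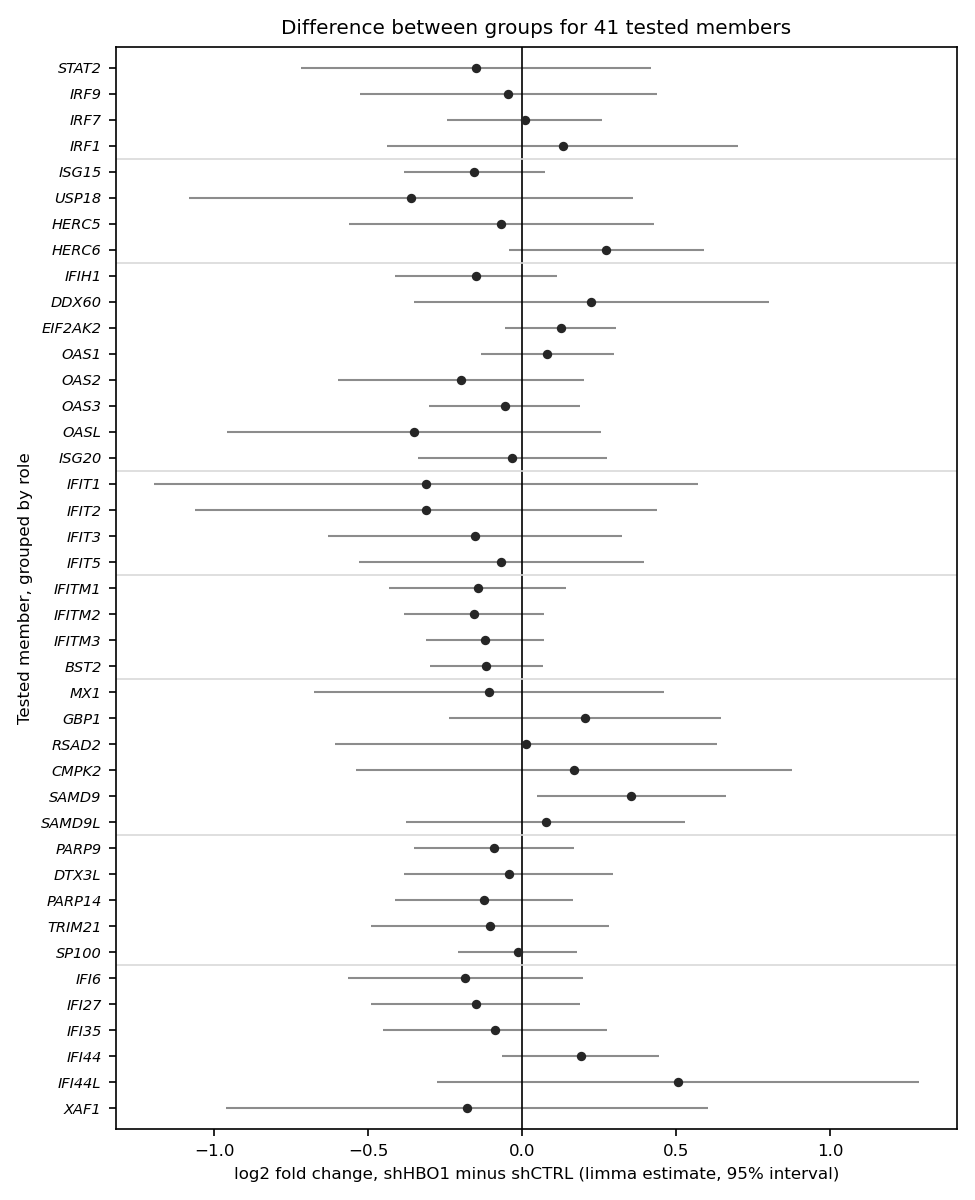
Log2 fold change (shHBO1 minus shCTRL) of the 41 tested members with 95% confidence intervals from limma without a block, grouped by role. All intervals but that of SAMD9 include 0, and the widest belong to IFIT1 and XAF1.

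SAMD9 was the single member whose groups did not overlap. It encodes an interferon-induced restriction factor of poxviruses that slows translation. Normalized counts of SAMD9 stood at 511, 449 and 399 in the controls and at 578, 524 and 631 in the knockdown libraries, so each shHBO1 library lay above each shCTRL library. Groups that did not overlap were found for 8.93% of all tested genes, with shHBO1 higher for 4.49% and lower for 4.44%. SAMD9 had a log2 fold change of 0.36 (SE 0.13, unadjusted p = 0.0288 and adjusted p = 1.00 by limma), with an interval at 95% confidence of 0.05 to 0.66. Without both libraries numbered 3 it was 0.20 (unadjusted p = 0.130 by limma). With only the most abundant of its 2 transcripts it was 0.21 over all 6 libraries. SAMD9L, its neighbour and relative, had 131 ± 20.9 in shCTRL and 138 ± 20.8 in shHBO1. Any reads shared between such relatives could not be separated, and how many were shared was not tested. The same holds for the IFITM genes and for USP18.

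The transcription factors of the list are STAT2 and IRF9, which form the ISRE-binding complex, IRF7, which drives type I interferon genes, and IRF1. STAT2 was 1573, 1638 and 840.0 in shCTRL and 1296, 1177 and 1039 in shHBO1. The 2 highest values and the lowest were all controls, so the shHBO1 values lay inside the control range (log2 fold change −0.15, SE 0.25). IRF9 had the same arrangement, with 954, 989 and 576 in shCTRL and 857, 818 and 704 in shHBO1 (−0.05, SE 0.21). IRF7 was steady over all 6 libraries, at 446 to 503 in shCTRL and 455 to 507 in shHBO1 (0.01, SE 0.11). IRF1 was 543, 556 and 874 in shCTRL and 548, 669 and 946 in shHBO1 (0.13, SE 0.25), with the library numbered 3 the highest of each group.

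ISG15 is conjugated to other proteins by an enzyme chain that includes the ligase HERC5, and USP18 removes it and also restrains the interferon receptor. ISG15 was 1945, 1712 and 1894 in shCTRL and 1802, 1487 and 1706 in shHBO1. Its groups overlapped (log2 fold change −0.15, SE 0.099, limma unadjusted p = 0.159, with the block unadjusted p = 0.0372 and adjusted p = 0.408). USP18 was 1046, 958 and 493 in shCTRL and 820.4, 609 and 466 in shHBO1. Its 2 number 3 libraries were the lowest of the 6 (−0.36, SE 0.31, limma unadjusted p = 0.279, with the block 0.0131, adjusted 0.310). HERC5 had −0.07 (SE 0.21) and HERC6, at 394, 397 and 346 in the controls and 482, 393 and 506 with the HBO1 hairpin, had 0.27 (SE 0.14).

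Members that sense or cut RNA had estimates in both directions, and none passed. EIF2AK2 was 2959.6, 3003 and 3232 in shCTRL and 3200.3, 3255 and 3580.1 in shHBO1, with groups that overlapped by a narrow margin (log2 fold change 0.13, SE 0.077). IFIH1 (MDA5), a sensor of long double-stranded RNA, averaged 909 ± 94.4 in shCTRL and 818 ± 66.1 in shHBO1 (−0.15, SE 0.11). OAS1, OAS2 and OAS3 make the messenger that activates the ribonuclease RNase L. OAS1 had 0.08, OAS2 −0.20, OAS3 −0.06 and OASL −0.35 (SE 0.26), the last with 111, 87.1 and 70.3 in shCTRL and 59.8, 60.1 and 89.7 in shHBO1. DDX60 had 0.23 (SE 0.25) and the exonuclease ISG20 −0.03 (SE 0.13).

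All 4 members of the IFIT family, some of which bind viral RNA that lacks a normal cap, had estimates below 0, and none passed. IFIT1 was 151, 107 and 52.4 in shCTRL and 73.8, 93.7 and 63.7 in shHBO1, so the control libraries alone spanned the whole range (−0.31, SE 0.38, 95% confidence interval −1.20 to 0.57). IFIT2 was 168, 138 and 71.3 in shCTRL and 114, 86.6 and 86.8 in shHBO1 (−0.31, SE 0.32). IFIT3 had −0.15 (SE 0.21) and IFIT5 −0.07 (SE 0.20). In each of the 4 genes the lowest of the 6 values was the shCTRL library numbered 3.

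The most abundant members act at membranes. IFITM3 was 9663, 9399 and 8308 in shCTRL and 8631, 8673 and 7848 in shHBO1, overlapping between groups (−0.12, SE 0.083). BST2 was 10435, 10248 and 8916 in shCTRL and 8982, 9339 and 8926 in shHBO1, where again the number 3 control was the lowest (−0.12, SE 0.079). IFITM2 had −0.16 (SE 0.098) and IFITM1 −0.14 (SE 0.12). These 4 estimates were close to each other, and the lowest bound of their 95% confidence intervals was −0.43, for IFITM1.

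Among the remaining members, IFI44 was 622, 732 and 663 in shCTRL and 774, 825 and 703 in shHBO1 (0.19, SE 0.11), with overlap through 1 library of each group. Its neighbour IFI44L, at low counts, was 21.3, 18.7 and 12.6 in shCTRL and 24.3, 29.5 and 21.2 in shHBO1, just overlapping (0.51, SE 0.34). The guanylate-binding GTPase GBP1 had 0.20 (SE 0.19), CMPK2, a mitochondrial nucleotide kinase, had 0.17 (SE 0.30), and RSAD2 had 0.01 (SE 0.27). PARP9 and DTX3L, which form a complex, had −0.09 (SE 0.11) and −0.04 (SE 0.15), and PARP14 had −0.12 (SE 0.12). TRIM21, an intracellular antibody receptor, had −0.10 (SE 0.17) and the nuclear body protein SP100 −0.01 (SE 0.083). IFI6 had −0.18, IFI27 −0.15, IFI35 −0.09 and the pro-apoptotic XAF1 −0.18 (SE 0.34). The median log2 fold change was −0.09 for the 25 members with an ISRE match in their window and 0.03 for the 10 without, given as a description only.

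The direction of the members' median differed between the replicate numbers. The median log2 difference between shHBO1 and shCTRL was −0.14 within number 1, −0.13 within number 2 and 0.10 within number 3, and the difference was above 0 for 16, 9 and 29 of the 41 members. Over all tested genes the 3 medians were 0.0063, 0.00095 and −0.0097. Whether the pairs differ was not tested, since each number has 1 library per group. The mean log2 level of the members was 8.92, 8.82 and 8.70 in shCTRL 1, 2 and 3, and 8.78, 8.70 and 8.84 in shHBO1 1, 2 and 3. The control libraries of numbers 1 and 2 and the shHBO1 library of number 3 were thus on the high side, although the ranges overlap.

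**Figure D3:**
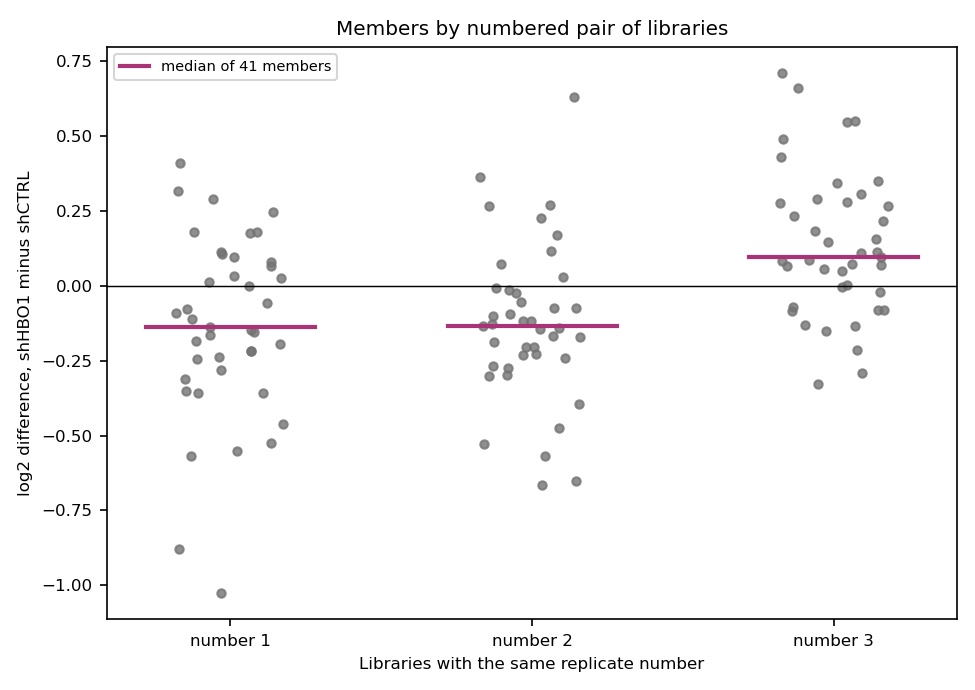
Log2 difference between shHBO1 and shCTRL within each pair of libraries that share a replicate number, 1 point per tested member (sideways scatter has no meaning). The bars mark the medians of −0.14, −0.13 and 0.10, and the cloud of number 3 lies higher than those of numbers 1 and 2.

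How many members reached an unadjusted p under 0.05 changed with the libraries left out. Without both libraries numbered 3, an alternative chosen after the data had been seen, 8 of 41 members (19.5%) had an unadjusted limma p under 0.05, all lower in shHBO1: STAT2, IRF9, USP18, IFIT1, IFIT2, OASL, IFITM1 and BST2. Over all genes 14.3% reached that level in the same fit and 7.26% did so with shHBO1 lower, and 0 members passed after adjustment. STAT2 then had −0.38 (unadjusted p = 0.00226) and USP18 −0.50 (unadjusted p = 0.00880). Number 3 was the pair with a member median above 0, at 0.10, so leaving it out favours estimates below 0. These counts and p-values are therefore given as a description only. Without the shCTRL library numbered 3 alone, 9 members reached an unadjusted p under 0.05, 8 lower and GBP1 higher, where 15.0% of all genes did and 7.25% were lower. Without the shHBO1 library numbered 3 alone there were 0 by limma, where 2.85% of all genes did and 1.56% were lower. Without the shCTRL library numbered 2 there were also 0 by limma, where 2.03% of all genes did and 0.943% were lower. Without the shHBO1 library numbered 2 there were 2, HERC6 and SAMD9, both higher, where 2.10% of all genes did and 1.03% were lower, and the members' median was −0.04.

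The share of members called for a difference between replicate numbers was close to that of all tested genes. The labels do not link same-numbered libraries across the groups, and their pairing was taken from these same data. The p-values for the numbers are therefore a description only. The F test of the number terms in the blocked limma fit called 4 of 41 members, IRF1, USP18, CMPK2 and DTX3L, which is 9.76% of them, where 9.68% of all tested genes were called. At an unadjusted p under 0.05 there were 15 members (36.6%), where 30.1% of all genes reached that level. IRF1 was higher in number 3 than in number 1 by 0.73 on the log2 scale (adjusted p = 0.0128), CMPK2 by 0.79 (adjusted p = 0.0428) and DTX3L by 0.33 (adjusted p = 0.0469). USP18 differed by −0.95 (adjusted p = 0.0145). CMPK2 was 157, 195 and 286 in shCTRL and 209, 173 and 344 in shHBO1, and DTX3L was 1623, 1678 and 2224 in shCTRL and 1747, 1564 and 2025 in shHBO1. Both genes were highest in the number 3 library of each group. STAT2 (−0.61), IRF9 (−0.50), IFIT1 (−0.86) and IFIT2 (−0.80) had negative differences that did not pass, and HERC5 (0.59) and GBP1 (0.38) positive ones that did not pass. The sign of the number 3 against number 1 difference was the same in both groups for 24 of the 41 members (58.5%) and for 71.5% of all tested genes. The summed level of 14 epithelial and Mullerian markers also differed by number, at 359503 and 339663 normalized counts in the number 3 libraries of shCTRL and shHBO1 and 397297 to 434632 in the other 4. The summed level of 11 endothelial and fibroblast markers was 1601 and 1790.0 in number 3 and 1958 to 2507 in the others. The highest of these were CDH5, at a mean of 887 over the 6 libraries, COL1A1 at 750 and COL1A2 at 292. DCN had 0 reads throughout. The part of these marker genes in the differences between numbers was not tested.

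**Figure D4:**
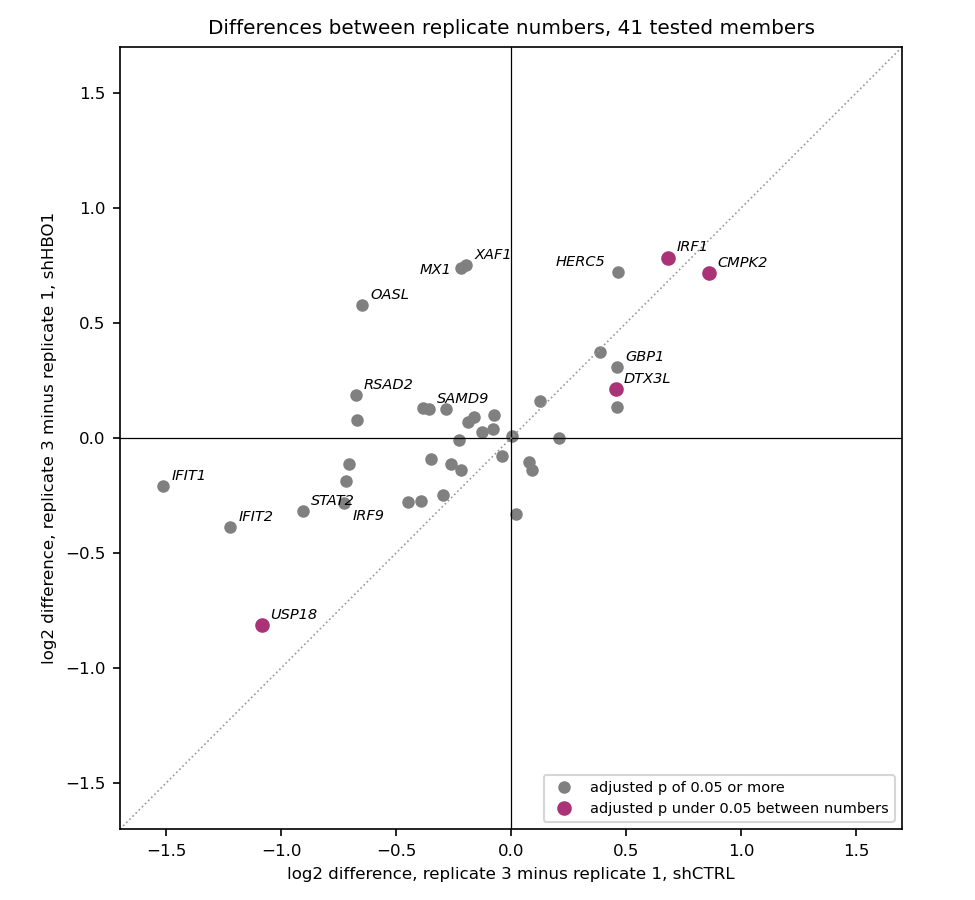
Log2 difference between replicates 3 and 1 within shCTRL (x axis) and within shHBO1 (y axis) for the 41 tested members. Purple points passed for a difference between numbers: IRF1, CMPK2 and DTX3L are positive in both groups and USP18 is negative in both, while OASL, MX1 and XAF1 differ in sign between the groups.

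Reads on the interferon genes themselves were nearly absent. Of 21 ligand genes, 19 had 0 reads in all 6 libraries, among them IFNB1, IFNG and all the alpha genes listed, which allows up to 3 reads per library, or 0.0752 to 0.0835 RPM of the reads on named genes. The epithelial interferon IFNE had 12, 8 and 15 reads in shCTRL and 6, 10 and 6 in shHBO1, and IFNL1 had 3 reads in 1 shHBO1 library. These limits cover counting error only. The part of read assignment in the counts of 0, as for the closely related alpha genes, was not tested. The receptors and kinases were all detected: of 9 genes tested 0 passed, 5 estimates were above 0 and 4 below, and the median was 0.0054. IFNAR1, a chain of the type I receptor, had 1611 ± 204 in shCTRL and 1729 ± 310.1 in shHBO1. IL10RB, a chain of the type III receptor, had 785 ± 40.6 and 696 ± 37.5 (−0.17, SE 0.096). Each of its shHBO1 values lay below each control, and groups did not overlap for 8.93% of all tested genes. TYK2 had −0.13, IFNGR1 −0.14 and IFNLR1 0.10. Single libraries moved each of these. Without shHBO1 replicate 2 TYK2 was −0.074 and IFNGR1 −0.058, and without shCTRL replicate 2 IFNLR1 was 0.0010.

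The sensors and adaptors that lead to interferon production differed in their reads. RIGI, the sensor of short double-stranded RNA with a 5′ triphosphate, had 0, 0 and 2 reads in shCTRL and 2, 2 and 1 in shHBO1, while the related sensor IFIH1 held 729 to 984 reads in each library. For RIGI too, the part of read assignment in so low a count was not tested. Of 13 tested genes in this list 0 passed, with a median of −0.06. IFI16, a DNA sensor, held 1687, 1778 and 1504 in shCTRL and 1939, 2192 and 2056 in shHBO1. Its groups did not overlap, and the log2 fold change of 0.32 (SE 0.093, limma unadjusted p = 0.00943, adjusted p = 1.00) did not pass. In TBK1 each shHBO1 value lay below each control (−0.10, SE 0.080), and groups did not overlap for 8.93% of all tested genes. MAVS, the mitochondrial adaptor of IFIH1, had 0.11 (SE 0.083), the DNA-sensing adaptor STING1 −0.21 (SE 0.16) and the RNA sensor TLR3 −0.40 (SE 0.24). Single libraries moved these as well. Without shHBO1 replicate 2 STING1 was −0.075 and TLR3 −0.23, and without shHBO1 replicate 3 MAVS was 0.046.

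**Figure D5:**
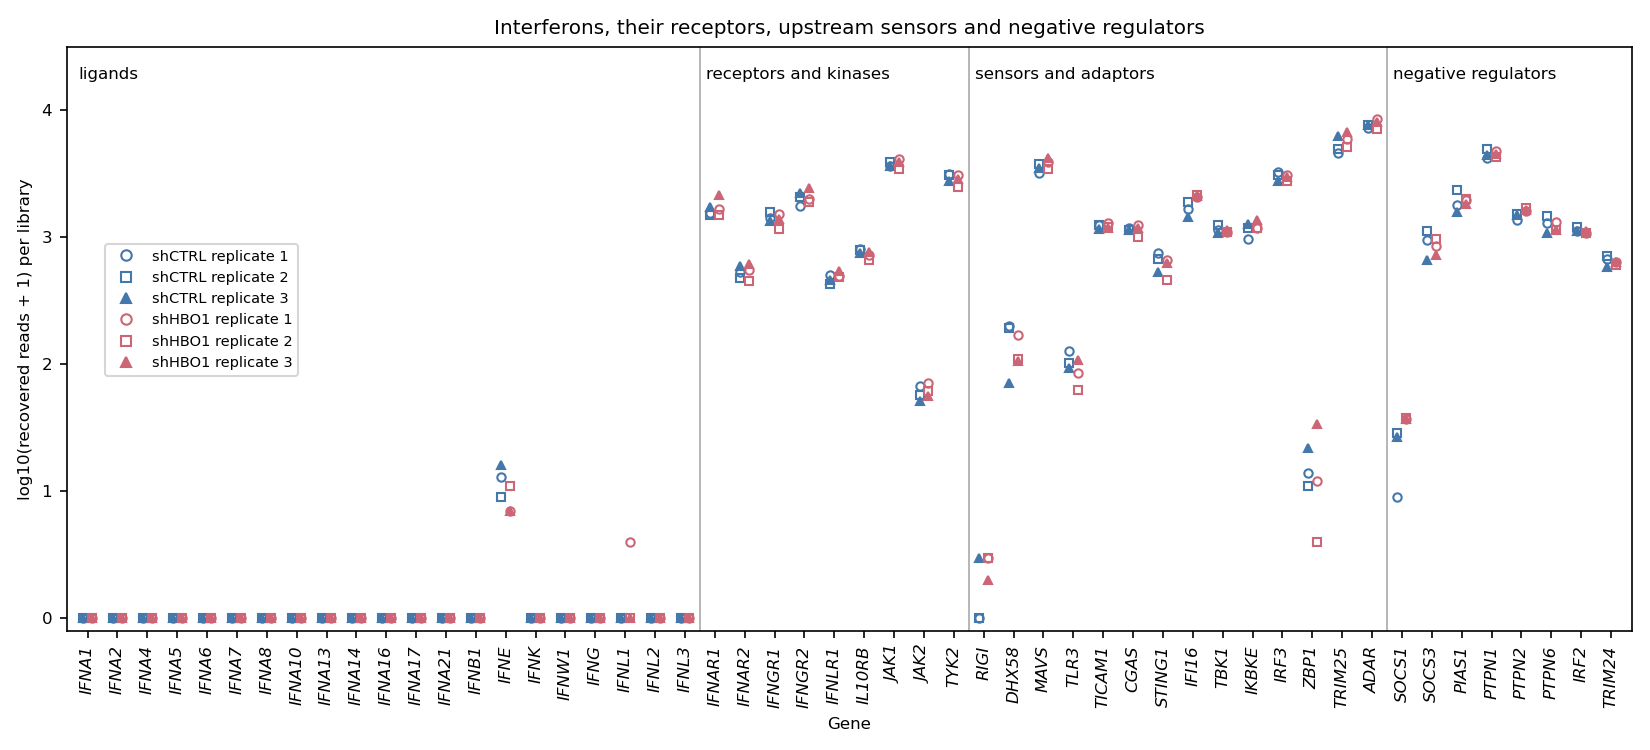
Recovered reads per library, as log10(reads + 1), for interferon ligands, receptors and kinases, upstream sensors and adaptors, and negative regulators, with symbols as in the plot of member levels. All ligands but IFNE and IFNL1 lie at 0, RIGI lies at 0 to 2 reads and JAK2, TLR3, ZBP1 and SOCS1 lie well below most other receptors, adaptors and regulators.

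Of 8 negative regulators tested, 0 passed. SOCS1, an inhibitor of the JAK kinases, was 8.13, 26.2 and 27.3 in shCTRL and 33.6, 37.7 and 34.7 in shHBO1, at low counts and without overlap (0.92, SE 0.47, limma unadjusted p = 0.0849). Its lowest library decided the size, and without shCTRL replicate 1 the estimate was 0.39. PTPN2 had 0.13, IRF2 −0.11 and PTPN6 −0.12, and in IRF2 each shHBO1 value lay below each control. In a further list of 31 interferon-induced genes outside the members, 30 were tested and 0 passed, with a median of −0.0042, 14 estimates above 0 and 16 below. UBE2L6, the enzyme that hands ISG15 to its ligases, was 1768, 1563 and 1263 in shCTRL and 1219, 1171 and 1212 in shHBO1 (−0.34, SE 0.13, limma unadjusted p = 0.0289, adjusted p = 1.00). Each shHBO1 value lay below each control. SLFN5 was 3055, 2948 and 2851 in shCTRL and 3586, 3349 and 3413 in shHBO1, the groups again separate (0.22, SE 0.069, limma unadjusted p = 0.0122, adjusted p = 1.00). NMI had −0.12, also with separate groups and shHBO1 lower, and LGALS3BP had −0.11. Groups that did not overlap were found for 8.93% of all tested genes, 4.49% higher and 4.44% lower in shHBO1.

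The non-members whose log2 level followed the members' mean most closely over the 6 libraries were RASD2 (Pearson r = 0.990), FUT1, TPP1, PNPLA6, IRF2BPL and RSPH1 (r = 0.984). They were the highest of 15132 genes compared, of which 53 had an r above 0.95, and the points share the library, so they are given as a description with no p.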

How the data were processed

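Per the submitters' processing notes, Bowtie 1.2.1.1, SAMtools, DESeq2 and the build hg19 were used, with no role or order stated. Nor is it given how a read that matched several transcripts was treated. The deposited file held the authors' normalized signal per RefSeq transcript (58215 of them). Within each library, 100% of values were whole multiples of the smallest value (tolerance 0.01 read), so reads were recovered. Names came from RefSeq (57191 accessions) and GENCODE 29 (646 more); 378 without a name (0.0920 to 0.0977% of reads) were left out. Transcripts were summed per gene, so a read counted for several transcripts would enter more than once. Lengths are those of the GENCODE transcript matched to the most abundant accession with one.

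The test was limma 3.58.1 (trend, R 4.3.3) on log2(normalized count + 1) for genes averaging 10 or more, and p-values were adjusted by Benjamini-Hochberg (threshold 0.05). Fold changes on this scale understate changes of low genes. edgeR 4.0.16 and DESeq2 1.42.0 were run on recovered reads. The limma, edgeR and DESeq2 fits without a block were tested on simulated data. Those data held no difference between replicate numbers, unlike these libraries, so the test does not cover that spread. The replicate numbers come from the labels, which do not say that same-numbered libraries of both groups belong together. They were treated as pairs because same-numbered libraries deviated together in these data (r = 0.32, 0.19 and 0.48 across genes). Values for differently numbered libraries are not given for comparison. The blocked fits and the F test of the numbers use the same data, so their p-values are not independent of this choice. The members and lists were chosen with earlier results of these data known. Statistics are given for the 8 members with the smallest p, the 6 with the smallest blocked p, the 6 highest per kb, members without overlap, up to 4 genes of each of 5 related lists and the 6 genes most like the members; other members are given by estimates. Those outside the rule were given more values after these were seen.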

Additional observations from a re-analysis of the deposited data

How the results depend on the processing

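Over 19 alternative settings, 0 members passed in any, and the members' median log2 fold change ran from −0.14 to −0.03. The 27 genes with statistics by the naming rule kept their direction and their side of the threshold in all 509 combinations of gene and setting that gave a value. Leaving out a single library moved the estimate by over 1.5 times for 19 of these 27 genes and for the other 8 it did not. KAT7 passed in each setting, at −2.16 to −1.89. The number of genes called over the whole table was 1 with each library left out and in the other settings, except that DESeq2 called 19, the limma fit with the replicate block 19, edgeR with the replicate block 19 and DESeq2 with the replicate block 148; the cause was not tested. The blocked fits with edgeR and DESeq2 and the fit without both libraries numbered 3 were chosen after seeing the data. Members at an unadjusted limma p under 0.05 numbered 3 with the replicate block (SAMD9 higher, ISG15 and USP18 lower), and 0 to 9 with a library left out: 9 without shCTRL replicate 3, 2 without shHBO1 replicate 2, and 0 without shCTRL replicate 2 or shHBO1 replicate 3. With 3 libraries per group the 95% confidence interval ran from −1.20 to 0.57 for IFIT1, and no value within it is excluded for that gene. MX2, with 1 to 4 reads per library, was too low to test.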
